A study of Rattus norvegicus with 8 samples.

Results

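A group of 5 genes that mark the mesothelium and the epicardium, Wt1, Aldh1a2, Upk1b, Lrrn4 and Msln, was followed on 8 expression arrays of aged rat hearts. The epicardium is the outer layer of the heart. Its surface is a sheet of mesothelial cells, which also continues onto the inside of the pericardial sac, so that the signal of these genes depends on how much surface tissue each RNA sample held as well as on how active the genes were there. The members were all probe sets, that is, sets of short array probes read out as 1 value, that the platform annotation gives to exactly 1 of these 5 symbols: 8 probe sets of the 31042 that are not controls, and 5 genes of the 14217 on the array with a probe set of 1 symbol. Wt1 had 2 probe sets, Lrrn4 had 3, and the other members had 1 each.

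The rats were female, of the Norway Brown strain and 18 to 22 months old. All had surgery. The sham group had the body cavity opened and closed with nothing removed, and the other 3 groups lost the ovaries. One of these received no hormone (ovariectomy), 1 received a 0.5 mg pellet of 17-beta estradiol at the operation (early estradiol), and 1 received the same kind of pellet 9 weeks after it (late estradiol). The pellet lies under the skin and releases over 90 days. Each group had 2 arrays, numbered replicate 1 and replicate 2, and the RNA on an array was a pool with equal parts from 3 hearts, so single animals cannot be seen. No source used here says whether a heart entered both pools of a group, and a p-value measures only the spread between pools, which can be technical in part. In whole-heart RNA, fewer cells of a type and less RNA per cell cannot be told apart.

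Values are log2 signals after quantile normalization, which gives every array the same distribution of values. The deposited arrays were on different scales: by a 2% trimmed mean, replicate 1 arrays had signals of 28.1 to 69.8 and replicate 2 arrays of 104 to 137. The dimmest was late estradiol replicate 1, where the 3' probes of Gapdh were 2.70 times as bright as the 5' probes, against 1.26 to 1.65 times on the other 7, a measure of RNA integrity. By beta-actin the same ratio was highest on ovariectomy replicate 2, at 3.06, and next on late estradiol replicate 1, at 3.01. It was 1.71 to 2.75 on the remaining arrays. The heart label was borne out by the 7 kept genes listed for ventricular cardiomyocytes, whose means lay at the 99.4th to 99.98th percentile. Their summed linear signal was 42472 to 45546 on all 8 arrays. Quantile normalization holds the brightest values nearly level, so this sum cannot show that the pools held equal parts of ventricle. A probe set was tested where its mean log2 value reached 3.69, the 40th percentile, which kept 18625. No probe set passed in any comparison after Benjamini-Hochberg adjustment at 0.05 (limma), so the share called was 0% in each. At an unadjusted p under 0.05 the counts ran from 144 for early estradiol against sham to 812 for late estradiol against ovariectomy, and the moderated F test over the 4 groups gave 347.

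In the embryo, epicardial cells express the transcription factor Wt1 and the enzyme Aldh1a2, and some of them leave the surface and give rise to fibroblasts and smooth muscle cells of the vessels. In the adult heart the layer is thin and largely quiet, and part of its embryonic programme returns after injury. Upk1b, Lrrn4 and Msln encode membrane proteins that mesothelial cells carry also around the lung and in the abdomen.

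Among the 5 members, Msln, Upk1b and Aldh1a2 had their highest group mean with early estradiol, and Wt1 and Lrrn4 had theirs with late estradiol. Ovariectomy alone gave the lowest group mean for Wt1, Aldh1a2 and Lrrn4, and sham gave the lowest for Upk1b and Msln. None of these differences passed. Only 4 of the 8 probe sets were bright enough to be tested, 1 each of Wt1, Aldh1a2, Upk1b and Lrrn4, and the values of the other 4 come from the fit over all 31042 probe sets.

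**Figure D1:**
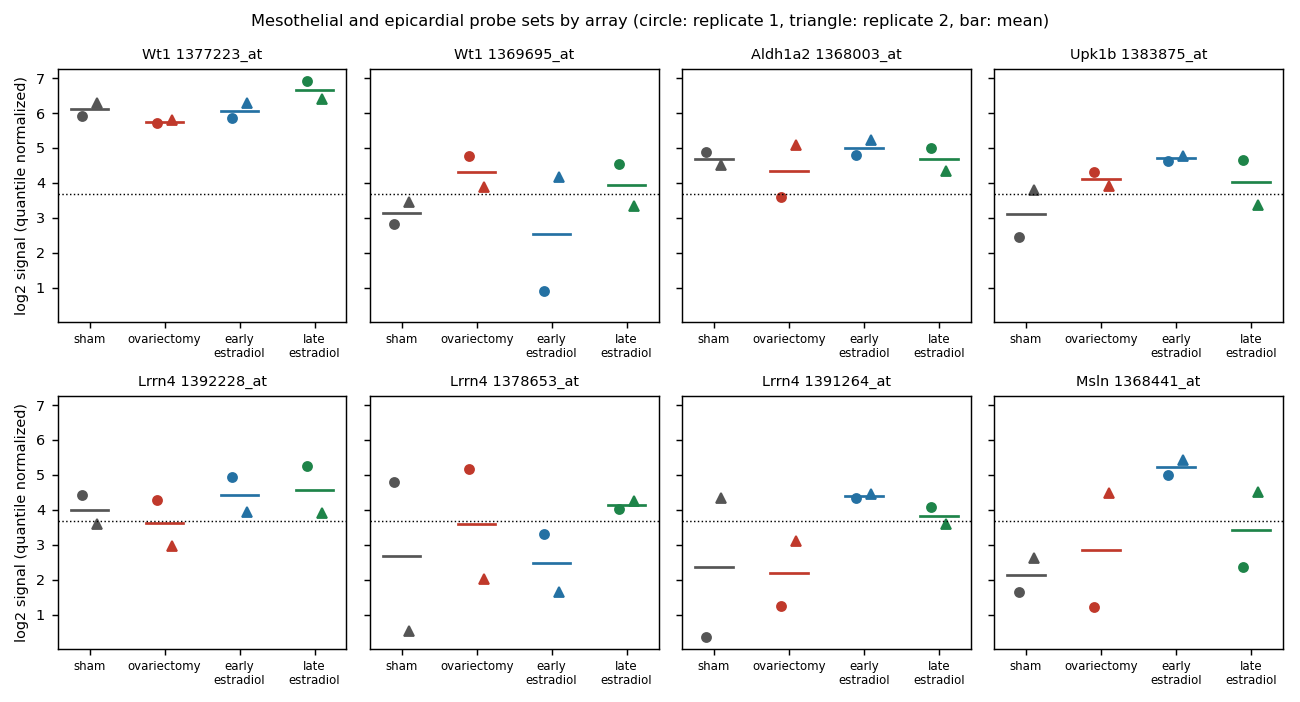
Log2 signal after quantile normalization (vertical axis) of the 8 probe sets on the 8 arrays, by group, with circles for replicate 1, triangles for replicate 2 and bars for the mean of both. The dotted line at 3.69 is the limit that the mean over all 8 arrays had to reach for a test. Wt1 1377223_at lay above the line on every array, and the other 7 panels cross it on at least 1 array.

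Wt1 encodes a zinc finger transcription factor that the epicardium needs in development. The gene lies on chromosome 3 of the assembly GRCr8, from 112019721 to 112068454. Its brighter probe set, 1377223_at, had a mean at the 75.3th percentile of all probe sets. It read 5.93 and 6.29 in sham, 5.71 and 5.79 after ovariectomy, 5.87 and 6.28 with early estradiol, and 6.92 and 6.42 with late estradiol, each for replicates 1 and 2. Both late estradiol arrays lay above the other 6, the higher of them being the dimmest array with the Gapdh ratio of 2.70, whose part in this value was not tested. Both ovariectomy arrays lay below the other 6, and the sham and early estradiol arrays overlapped between them. Of all tested probe sets, late estradiol lay without overlap above early estradiol in 15.5% and above sham in 14.5%. Ovariectomy lay without overlap below early estradiol in 14.7%. The share with 1 group beyond all other arrays was not counted.

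Late estradiol against ovariectomy gave the difference of smallest p for Wt1, 0.92 ± 0.32 (log2, limma standard error, n = 2 arrays per group), or 1.89-fold (limma unadjusted p = 0.018, adjusted p = 0.943). The difference was 1.21 within replicate 1 and 0.62 within replicate 2, and ran from 0.68 to 1.16 when each array was left out in turn. Without normalization between arrays it was 0.52, on a scale where the median of all tested probe sets was -0.31. Groups that do not overlap, with the first above the second, were common in this comparison, at 15.7% of all tested probe sets. Against early estradiol, late estradiol lay 0.60 ± 0.32 higher (limma unadjusted p = 0.0959, adjusted p = 0.987), by 1.05 in replicate 1 and 0.14 in replicate 2. Against sham it lay 0.56 ± 0.32 higher, by 0.998 and 0.12, but without normalization this difference was -0.13, beside a median of -0.62 for all tested probe sets. Ovariectomy lay below sham, at -0.36 ± 0.32, without overlap, as did 14.1% of all tested probe sets. Early estradiol and sham differed by -0.04 ± 0.32.

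The second Wt1 probe set, 1369695_at, did not follow the first. It was dim, with a mean at the 36.6th percentile, and was not kept. It read 2.82 and 3.45 in sham, 4.77 and 3.87 after ovariectomy, 0.89 and 4.17 with early estradiol, and 4.54 and 3.35 with late estradiol. Ovariectomy, the lowest group by the brighter probe set, was the highest group by this one, and the 2 probe sets differed in direction in 3 of the 6 comparisons. The order of the groups for Wt1 therefore rests on 1 probe set.

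Aldh1a2 encodes the retinaldehyde dehydrogenase that makes retinoic acid in the developing epicardium. The gene lies on the plus strand of chromosome 8 from 80758641 to 80837891, and the 250 bases before its start, at chr8:80758391-80758640 (GRCr8, RefSeq), are shown together with those of Lrrn4 at chr3:140603987-140604236, on the minus strand, because the 2 members differ widely in CG content there. Capitals mark CG dinucleotides.
Aldh1a2: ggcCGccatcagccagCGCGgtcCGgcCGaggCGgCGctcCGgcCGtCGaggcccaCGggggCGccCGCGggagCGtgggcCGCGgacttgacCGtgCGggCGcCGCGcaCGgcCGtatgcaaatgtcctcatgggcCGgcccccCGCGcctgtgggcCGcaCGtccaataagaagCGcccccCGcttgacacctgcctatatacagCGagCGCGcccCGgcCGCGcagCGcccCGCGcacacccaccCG
Lrrn4: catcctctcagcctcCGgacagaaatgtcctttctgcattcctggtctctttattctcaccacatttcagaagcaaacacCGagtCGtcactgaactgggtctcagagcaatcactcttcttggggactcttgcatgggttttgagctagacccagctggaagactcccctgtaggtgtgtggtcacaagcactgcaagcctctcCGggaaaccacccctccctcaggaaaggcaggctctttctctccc
The Aldh1a2 window held 41 CG dinucleotides and 77.2% G or C, with more CG than 99.0% of 33469 such windows, and the Lrrn4 window held 4 CG and 53.2% G or C. The median window held 5. The windows of Wt1 and Upk1b overlap annotated genes and are not printed. That of Wt1, at 112021759-112022008, lies inside the gene's own span, and that of Upk1b, at 75459131-75459380, crosses the gene's start. They held 27 and 4 CG dinucleotides. The letters GGAATG, the core bound by TEAD factors, occurred on either strand 1 time each in the windows of Lrrn4 and Upk1b and 0 times in those of Wt1 and Aldh1a2, and 12.1% of all windows held them. The letters GGGCGG, the GC box, occurred on either strand 0 times in these 4 windows, and 30.5% of all windows held them. The GC box holds a CG dinucleotide itself. These counts describe letters only. Wt1 and Lrrn4, with 27 and 4 CG, had their highest group means with late estradiol, and Aldh1a2 and Upk1b, with 41 and 4, had theirs with early estradiol.

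For Aldh1a2 the groups could not be separated. The probe set read 4.87 and 4.51 in sham, 3.60 and 5.09 after ovariectomy, 4.79 and 5.23 with early estradiol, and 4.999 and 4.34 with late estradiol. The ovariectomy arrays were the lowest and the second highest of the 8, so that they spanned nearly the whole range. The difference of smallest p, early estradiol against ovariectomy, was 0.66 ± 0.61 (limma unadjusted p = 0.30, adjusted p = 1), made up of 1.19 in replicate 1 and 0.14 in replicate 2. It was -0.09 without ovariectomy replicate 1 and 1.40 without ovariectomy replicate 2. The other 5 differences lay between -0.35 and 0.32.

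Upk1b encodes a tetraspanin, a membrane protein best known from the surface plaques of the bladder lining. The gene lies on chromosome 11 from 75459244 to 75496579. The probe set read 2.44 and 3.79 in sham, 4.30 and 3.92 after ovariectomy, 4.62 and 4.77 with early estradiol, and 4.65 and 3.38 with late estradiol. Both sham arrays lay below both arrays of the ovariectomy group, as in 11.0% of all tested probe sets, and of the early estradiol group, as in 12.1%, while the late estradiol arrays were the second highest and the second lowest of the 8.

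Early estradiol lay above sham by 1.58 ± 0.78 for Upk1b, or 3.0-fold (limma unadjusted p = 0.0705, adjusted p = 1). The difference was 2.19 in replicate 1 and 0.98 in replicate 2, and it was 0.92 without sham replicate 1, the lowest of the 8 arrays. Ovariectomy lay 0.998 ± 0.78 above sham, with 1.87 in replicate 1 and 0.13 in replicate 2, and was 0.32 above it without sham replicate 1. Early estradiol lay 0.59 ± 0.78 above ovariectomy. Late estradiol and ovariectomy differed by -0.10 ± 0.78.

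Lrrn4 encodes a membrane protein with leucine-rich repeats that marks mesothelial cells in the mouse. The gene lies on chromosome 3 from 140592303 to 140603986. Its brightest probe set, 1392228_at, read 4.42 and 3.58 in sham, 4.29 and 2.96 after ovariectomy, 4.94 and 3.92 with early estradiol, and 5.25 and 3.90 with late estradiol. Replicate 1 lay above replicate 2 in all 4 groups, and all groups overlapped.

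Within each replicate the order for Lrrn4 was nearly the same. Late estradiol lay 0.97 above ovariectomy in replicate 1 and 0.94 above it in replicate 2, 0.95 ± 0.79 in the fit (1.93-fold, limma unadjusted p = 0.258, adjusted p = 0.945). Early estradiol lay 0.65 and 0.97 above ovariectomy, 0.81 ± 0.79 in the fit (adjusted p = 1). With the replicate number as a block the standard error was 0.59, and the adjusted p for late estradiol against ovariectomy was 0.673. Leaving out single arrays removes this balance between replicates, and the late estradiol difference then ran from 0.26 to 1.63.

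The 2 other Lrrn4 probe sets were not kept. By 1378653_at the arrays read 4.80 and 0.54 in sham, 5.17 and 2.02 after ovariectomy, 3.30 and 1.64 with early estradiol, and 4.02 and 4.24 with late estradiol. By 1391264_at they read 0.35 and 4.35 in sham, 1.25 and 3.10 after ovariectomy, 4.33 and 4.46 with early estradiol, and 4.07 and 3.58 with late estradiol. In sham the 2 probe sets ran opposite ways across the replicates, each from under 1 to over 4. Set against 1392228_at, 1378653_at had the opposite direction in 3 of 6 comparisons and 1391264_at in 1 of 6. Early estradiol lay above ovariectomy by 2.22 ± 1.30 in 1391264_at and below it, at -1.12 ± 1.47, in 1378653_at.

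Msln encodes mesothelin, a surface glycoprotein of mesothelial cells held in the membrane by a lipid anchor. The gene lies on chromosome 10 from 15276489 to 15285921. Its only probe set, with a mean at the 35.3th percentile, was not kept by the filter, although it was the widest-ranging of the members' brightest probe sets. It read 1.65 and 2.61 in sham, 1.21 and 4.47 after ovariectomy, 5.001 and 5.44 with early estradiol, and 2.35 and 4.51 with late estradiol. Both early estradiol arrays lay above the other 6. Of all tested probe sets, early estradiol lay without overlap above sham in 12.1%, above ovariectomy in 14.7% and above late estradiol in 16.3%. The deposited signals were 3.94 and 6.60 in sham, 1.98 and 31.7 after ovariectomy, 21.8 and 74.4 with early estradiol, and 2.95 and 29.7 with late estradiol, which lay below the array's median signal on 6 of the 8 arrays and above it on both early estradiol arrays.

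Early estradiol against sham gave the largest Msln difference, 3.09 ± 1.21 on the log2 scale (limma fit over all probe sets, unadjusted p = 0.0253, adjusted p = 1). It was 3.35 in replicate 1 and 2.83 in replicate 2, and stayed between 2.63 and 3.53 when each array was left out in turn. With 32 added to every signal before the log, which damps dim values, it was 0.95, and no fold is given because both sham values lay below the filter's limit of 3.69. Early estradiol lay above ovariectomy by 2.38 ± 1.21 (limma unadjusted p = 0.0724, adjusted p = 1), by 3.79 in replicate 1 and 0.97 in replicate 2. This difference was 0.77 without ovariectomy replicate 1, 3.99 without ovariectomy replicate 2, and 0.71 with 32 added. Late estradiol lay below early estradiol, at -1.79 ± 1.21, with -2.65 and -0.93 in the replicates.

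**Figure D2:**
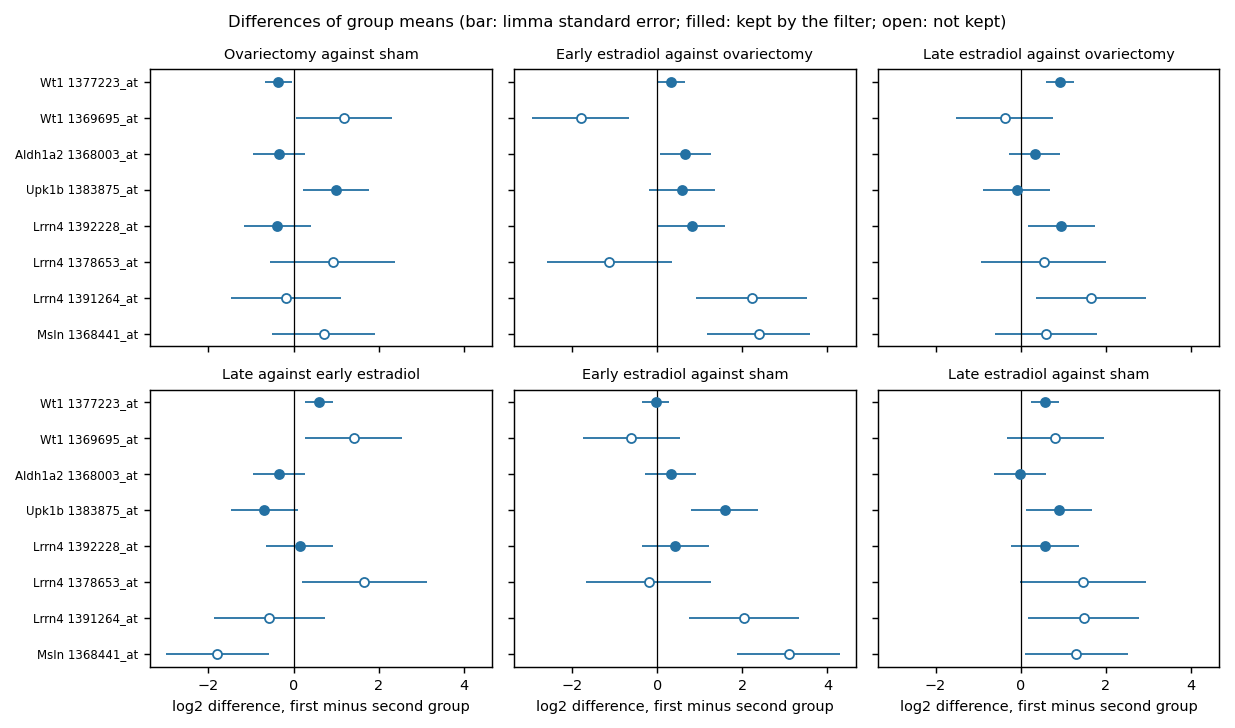
Log2 difference of group means (horizontal axis, first minus second group, n = 2 arrays each) of the 8 probe sets in the 6 comparisons, with limma's standard error as bars, filled for probe sets kept by the filter and open for those not kept. The open points have the wider bars, and the probe sets of Wt1 and of Lrrn4 lie on both sides of 0 for early estradiol against ovariectomy.

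Each gene taken by its brightest probe set, all 5 members lay higher with early estradiol than after ovariectomy, and they did so in both replicates. Of all tested probe sets, which do not include Msln, 26.9% were higher in both replicates of this comparison. Over all 8 member probe sets 6 were higher and 2 lower, Wt1 1369695_at at -1.79 ± 1.14 and Lrrn4 1378653_at at -1.12 ± 1.47, the second of them lower in both replicates. Wt1, Upk1b and Msln had groups that did not overlap, with early estradiol above, as did 14.7% of all tested probe sets. The differences of the 4 kept members had a median of 0.63, beside 0.02 over all tested probe sets. Late estradiol lay above ovariectomy for 4 of 5 members, in both replicates for 3 of them (Wt1, Lrrn4 and Msln), where the background was 28.0%, and Wt1 alone did not overlap, where 15.7% of all tested probe sets did not overlap in that direction. For Msln that difference was 0.59 ± 1.21, and -1.03 without ovariectomy replicate 1. Ovariectomy lay below sham for 3 of 5 members, in both replicates for Wt1 and Lrrn4, where the background was 25.2%. These 3 comparisons share the ovariectomy arrays. With 5 members, single genes decide such counts. The members were chosen with earlier results of these data known, so the counts cannot test for a shift of the group.

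**Figure D3:**
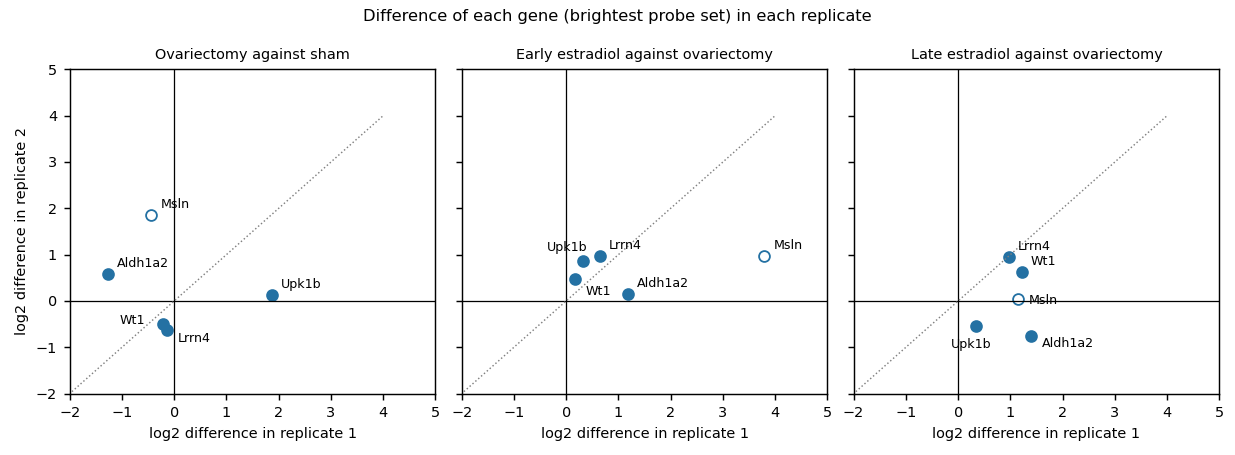
Log2 difference of the 5 members (brightest probe set) in replicate 1 (horizontal axis) and replicate 2 (vertical axis) in 3 comparisons. Filled points were kept by the filter, the open point is Msln, and the dotted line marks equal differences. For early estradiol against ovariectomy all 5 points lie in the upper right quadrant, and in the other 2 panels they lie in more than 1 quadrant.

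The members did not order the arrays alike. Early estradiol replicate 2 was the highest array for Aldh1a2, Upk1b and Msln, and late estradiol replicate 1 was the highest for Wt1 and Lrrn4. Ovariectomy replicate 1 was the lowest for Wt1, Aldh1a2 and Msln, sham replicate 1 for Upk1b and ovariectomy replicate 2 for Lrrn4. Relative to each member's mean over the 8 arrays, the average of the 5 members was -0.61 and -0.32 in sham, -0.65 and -0.03 after ovariectomy, 0.57 and 0.65 with early estradiol, and 0.36 and 0.03 with late estradiol. All 4 arrays with estradiol thus lay above the 4 without, but by only a narrow gap, between 0.03 and -0.03. How often other genes or sets of genes separate the 8 arrays in this way was not counted. The groups overlapped when Wt1, Lrrn4 or Msln was left out, and when the arrays were not normalized.

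The average of other kept markers of the mesothelium was highest on both early estradiol arrays, at 0.61 and 0.41 relative to their mean over the 8 arrays, and below 0 on the other 6. This was not particular to mesothelial markers. The 3 kept blood cell markers were highest on the same 2 arrays, at 0.92 and 0.27, against -0.54 to 0.23 on the other 6. The average of the 5 members was highest on the same 2 arrays, whereas the 4 kept members alone were highest on late estradiol replicate 1, at 0.71. Of 16 listed mesothelial genes 13 had a probe set of 1 symbol and 8 were kept. Early estradiol lay above ovariectomy for 6 of the 8, with a median of 0.24, and 0 were called. C3, a complement protein, read 3.77 and 4.29 in sham, 4.23 and 4.47 after ovariectomy, 7.39 and 5.65 with early estradiol, and 5.55 and 3.94 with late estradiol, so that early estradiol lay above the rest, by 2.17 ± 0.69 against ovariectomy (limma unadjusted p = 0.0105, adjusted p = 1). Slpi, a secreted protease inhibitor, read 5.46 and 5.21 in sham, 3.49 and 6.11 after ovariectomy, 6.79 and 7.08 with early estradiol, and 5.55 and 7.18 with late estradiol, with 2.14 ± 0.76 for the same comparison (limma unadjusted p = 0.0185, adjusted p = 1). Neither gene is limited to mesothelial cells. The list average on the early estradiol arrays leans on C3 and Slpi, since the next largest difference from ovariectomy was 0.81, for Gpm6a. Of the 8 kept genes, only C3 had its highest value on an early estradiol array. Early estradiol lay above ovariectomy without overlap in 14.7% of all tested probe sets.

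Krt19, a keratin of surface epithelia, ran against Wt1 and Lrrn4. It read 5.07 and 3.69 in sham, 5.49 and 4.57 after ovariectomy, 5.04 and 4.87 with early estradiol, and 3.07 and 1.45 with late estradiol. Both late estradiol arrays were the lowest of the 8, at -2.76 ± 0.79 against ovariectomy (limma unadjusted p = 0.00599, adjusted p = 0.943). Of all tested probe sets, late estradiol lay without overlap below ovariectomy in 13.4%, below early estradiol in 16.3% and below sham in 16.1%. Late estradiol against ovariectomy gave 5 of the 8 genes higher and 3 lower, with a median of 0.36. Krt7, Krt8, Krt18, Bnc1 and Rspo1 were not kept, and their means lay at the 2.06th to 32.3th percentile. For Upk3b, Muc16 and Cldn15 no probe set had 1 symbol.

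Transcription factors of the epicardium and genes related to them were mixed in direction against ovariectomy, and 0 were called. Of 10 listed genes 8 were kept, 4 were higher and 4 lower with early estradiol than after ovariectomy (median -0.12), and 3 were higher and 5 lower with late estradiol (median -0.20). Against sham, 6 of the 8 were higher both after ovariectomy (median 0.13) and with early estradiol (median 0.13). Tbx18, a T-box factor of the epicardium, read 3.98 and 4.58 in sham, 4.90 and 4.48 after ovariectomy, 4.23 and 4.58 with early estradiol, and 4.94 and 4.80 with late estradiol. Tcf21, a factor of epicardium-derived fibroblasts, read 6.06 and 6.37 in sham, 5.50 and 6.49 after ovariectomy, 6.27 and 6.39 with early estradiol, and 4.21 and 6.80 with late estradiol. Tcf21 was thus both lowest and highest in the late estradiol group, lowest on the dimmest array. Hand2, a basic helix-loop-helix factor, had the smallest p of the list for late against early estradiol, at 0.91 ± 0.45 (limma unadjusted p = 0.071, adjusted p = 0.987).

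Of the retinoic acid pathway, in which Aldh1a2 makes the ligand, 13 of 17 listed genes were kept and 0 were called. Early estradiol lay above ovariectomy for 6 and below it for 7, and late estradiol lay above it for 8 and below it for 5. Rarg, a retinoic acid receptor, read 4.57 on both sham arrays, 5.64 and 5.49 after ovariectomy, 5.51 and 5.35 with early estradiol, and 4.23 and 4.54 with late estradiol. The ovariectomy and early estradiol arrays were the 4 highest, and late estradiol stood at -1.18 ± 0.42 against ovariectomy (limma unadjusted p = 0.0177, adjusted p = 0.943). Of all tested probe sets, ovariectomy lay without overlap above sham in 11.0%, and early estradiol did so in 12.1%. Late estradiol lay without overlap below ovariectomy in 13.4% and below early estradiol in 16.3%. Cyp26b1, an enzyme that breaks retinoic acid down, lay 0.93 ± 0.41 above ovariectomy with late estradiol (limma unadjusted p = 0.0446, adjusted p = 0.943), by 0.51 and 1.36 in the replicates. Aldh1a1, another retinaldehyde dehydrogenase, stood at -0.42 ± 0.31 with early and -0.44 ± 0.31 with late estradiol against sham. Of the uroplakin and Lrrn relatives, 5 of 7 had a probe set and 0 were kept.

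**Figure D4:**
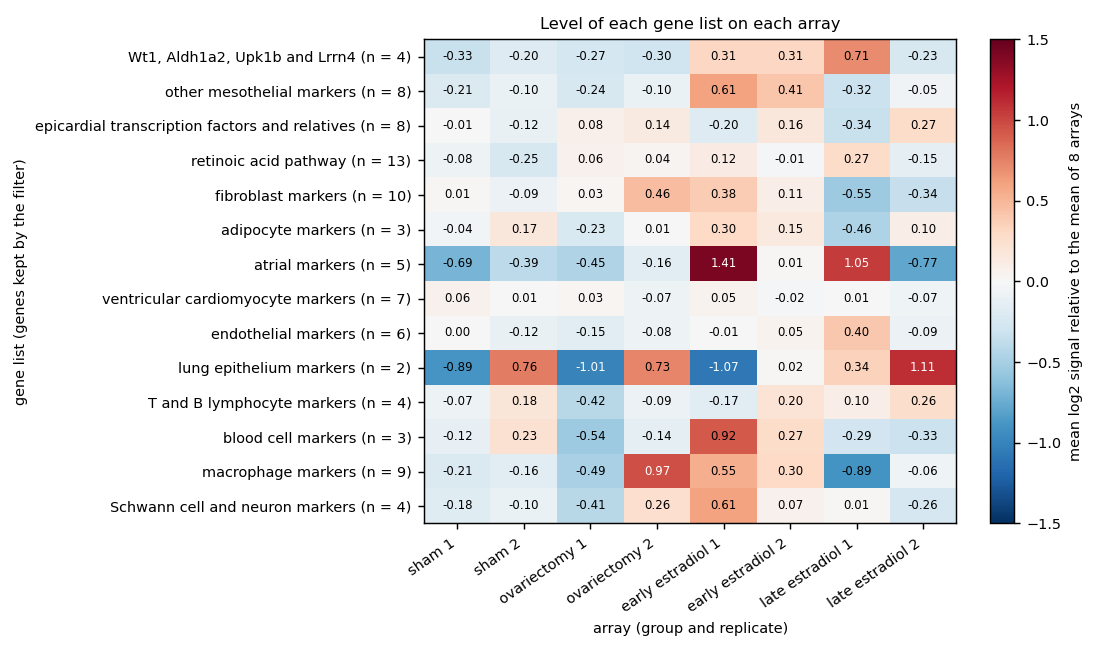
Mean log2 signal of each gene list on each array (colour and printed value), relative to the mean over the 8 arrays, for the genes kept by the filter. The 4 kept members were highest on late estradiol replicate 1 (0.71), and the other mesothelial markers on early estradiol replicate 1 (0.61). Atrial markers were high on both of these arrays.

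The atrial and endothelial lists were high on an array where some of the members were highest, and their part in the members' values was not tested. The 5 kept of 6 atrial markers averaged 1.41 on early estradiol replicate 1 and 1.05 on late estradiol replicate 1, against -0.77 to 0.01 on the other 6 arrays, and their summed linear signal was 1146 to 3005 in sham, 1929 to 3499 after ovariectomy, 3209 to 3765 with early and 2639 to 4798 with late estradiol. Late estradiol replicate 1, where Wt1 and Lrrn4 were highest, was thus 1 of these 2 arrays. On early estradiol replicate 1, the highest for the atrial list, Wt1 1377223_at had rank 6 of the 8 arrays and Lrrn4 1392228_at rank 2. Early estradiol replicate 2, where Aldh1a2, Upk1b and Msln were highest, stood at 0.01 for the atrial list. Myl7, the atrial myosin light chain, differed by 4.85 between early estradiol and ovariectomy in replicate 1 and by -0.15 in replicate 2. Without late estradiol replicate 1, Wt1 lay 0.68 above ovariectomy, a value that rests on a single late estradiol array. The 6 kept endothelial markers were also highest on late estradiol replicate 1, at 0.40 against -0.15 to 0.05 on the other 7 arrays. For late estradiol against ovariectomy, Tek, an endothelial receptor kinase, lay 0.54 ± 0.22 higher (limma unadjusted p = 0.0322, adjusted p = 0.943) and Kdr, a receptor for vascular endothelial growth factor, 0.48 ± 0.22 higher (limma unadjusted p = 0.0563, adjusted p = 0.943), both in both replicates.

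All 10 fibroblast markers were kept. Late estradiol lay below ovariectomy for 9 of them (median -0.48), and the list averaged -0.55 and -0.34 on the late estradiol arrays against -0.09 to 0.46 on the others, whereas Wt1 and Lrrn4 had their highest group means with late estradiol. The 9 macrophage markers averaged 0.97 on ovariectomy replicate 2, -0.89 on late estradiol replicate 1 and -0.49 on ovariectomy replicate 1. On the early estradiol arrays they averaged 0.55 and 0.30. All 9 were higher with early estradiol than in sham (median 0.60), and 0 were called. Of the lung epithelium, which has its own mesothelial cover, the surfactant genes Sftpc, Sftpb, Sftpa1 and Sftpd were not kept, and the other 2 genes, Scgb1a1 and Ager, had a summed linear signal of 14.8 to 63.9. Of the fat cell markers, Adipoq, Plin1, Lep and Cidec were not kept, and the 3 kept averaged -0.46 to 0.30.

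The genes whose values ran closest to each member over the 8 arrays were found by Pearson's r among the 10450 kept genes. These correlations share the same 8 arrays and are the extremes of 10449 or 10450 comparisons per member, and they are given as a description. For Wt1 they were Pin4, a peptidyl-prolyl isomerase, at r = 0.979, Gpr137b, a lysosomal membrane protein, at 0.955, and Selenoi, a phospholipid-synthesizing selenoprotein, at 0.951. For Aldh1a2 they were the sorting protein gene Pacs1 at r = 0.940, Penk, the enkephalin precursor, at 0.934, and Ramp2, a partner of the adrenomedullin receptor, at 0.930. For Upk1b they were Zfp758 at r = 0.953, Cir1 at 0.945 and Fubp3 at 0.921.
For Lrrn4 they were the kinase gene Map3k1 at r = 0.981, Rnf44 at 0.975 and Myh11, the smooth muscle myosin heavy chain, at 0.966. For Msln they were Septin10 at r = 0.935, the repressor Hic1 at 0.931 and the Notch ligand Jag1 at 0.926. No member was among the 3 genes closest to another, but Msln could not be, since only kept genes were searched. The number of genes with r above 0.9 was 23 for Wt1, 15 for Aldh1a2, 6 for Upk1b, 71 for Lrrn4 and 9 for Msln.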

How the data were processed

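RNA of 3 pooled hearts was measured on each of 8 single-colour Affymetrix arrays. The authors deposited a linear signal intensity per probe set, a MAS5 output per the submitters' processing notes. No source used here gives the MAS5 version, its scaling target or its detection calls. Of 31099 probe sets, 57 controls were left out. The log2 of the deposited intensity was quantile normalized, and the 18625 probe sets at or above the 40th percentile of mean log2 (3.69) entered limma 3.58.1 (R 4.3.3) in a group-means model over all 8 arrays with an intensity trend (4 residual degrees of freedom, median residual SD 0.395). Tests were two-sided, with Benjamini-Hochberg adjustment over all kept probe sets at 0.05. Probe sets not kept took their values from the fit over all 31042.

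Names came from the platform annotation (20826 probe sets with 1 symbol, 436 with several, 9780 with none), and the Entrez numbers of all 5 members matched the RefSeq table of GRCr8, which gave positions and upstream sequence. A gene was represented by its brightest probe set. The named genes were every member probe set, the 3 kept genes most correlated with each member, and, of 14 lists counting the members, up to 4 genes of smallest unadjusted p in a comparison; list genes that were not kept, and Spp1, Gpnmb and Lgals3, were named after their values were seen. The members and lists were chosen with earlier results of these data known.

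Replicate 2 minus replicate 1 correlated between all 6 pairs of groups (r = 0.28 to 0.33 across probe sets), so the replicate number was treated as a possible batch. The labels do not say what the number marks. The fit behind the printed p-values leaves it out, the fit with it as a block is an alternative, and differences within each replicate are printed. The fit was tested on simulated data with known changes. The number of arrays limits the precision.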

Additional observations from a re-analysis of the deposited data

How the results depend on the processing

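No member passed under any of 16 alternatives, of which 8 left out 1 array each. The count of probe sets called for late estradiol against ovariectomy was 0, and 1 with no filter, with a filter at the 60th percentile, with 32 added before the log, and with the replicate block; the probe set was Col3a1 each time (-1.72, -1.72, -1.64 and -1.72, adjusted p = 0.0412, 0.0476, 0.0407 and 0.0177, limma). The pairing by replicate number moved no other count. The filter at the 60th percentile kept, of the members, only Wt1 1377223_at. Without normalization between arrays, 3 small differences turned sign: Aldh1a2 for late estradiol against ovariectomy (-0.0172), Lrrn4 1392228_at for late against early estradiol (-0.12) and Wt1 1377223_at for late estradiol against sham (-0.13). With each array centred on its median, Wt1 1377223_at for early estradiol against sham was 0.0045. The cause was not tested.

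Leaving out 1 array at a time moved the counts of calls from 0 to 3 for ovariectomy against sham, 0 to 65 for late estradiol against ovariectomy, 0 to 100 for late against early estradiol, 0 to 86 for late estradiol against sham, and 0 to 1 for the F test. The highest counts of the last 4 came without late estradiol replicate 2, which leaves only the dimmest array in that group, assumed to vary like the others. The 3 were Spp1, Gpnmb and Lgals3, without ovariectomy replicate 1. Of kept probe sets, differences that changed sign ran from -1.09 to 0.41 (ovariectomy against sham), -0.0857 to 1.40 (early estradiol against ovariectomy), -0.43 to 1.07 (late estradiol against ovariectomy) and -0.36 to 0.30 (late estradiol against sham) for Aldh1a2. For Lrrn4 1392228_at they ran from -1.03 to 0.29 (ovariectomy against sham), -0.55 to 0.82 (late against early estradiol), -0.0796 to 0.91 (early estradiol against sham) and -0.11 to 1.24 (late estradiol against sham). They ran from -0.73 to 0.53 for Upk1b (late estradiol against ovariectomy) and from -0.23 to 0.17 for Wt1 1377223_at (early estradiol against sham). Of the 24 differences of probe sets not kept, 12 changed sign too, among them those of Msln for ovariectomy against sham (-0.90 to 2.34) and late estradiol against ovariectomy (-1.03 to 2.20), 3 of 6 of Wt1 1369695_at, and 5 and 2 of 6 of Lrrn4 1378653_at and 1391264_at.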

Other observations

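The lists for blood cells, for lymphocytes, and for Schwann cells and neurons had these values, and 0 of their genes were called. The 3 kept blood cell markers averaged 0.92 and 0.27 with early estradiol and -0.54 and -0.14 after ovariectomy. The 4 kept lymphocyte markers averaged -0.42 on ovariectomy replicate 1 and 0.26 on late estradiol replicate 2, their lowest and highest arrays. The 4 kept markers of Schwann cells and neurons averaged 0.61 on early estradiol replicate 1 and -0.41 on ovariectomy replicate 1.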
